A study of Mus musculus with 6 samples.

Results

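The transcripts of the citrate cycle, of the respiratory chain and of ATP synthase were compared between NJT-2 and control cells. Both were put through adipocyte differentiation, and the study calls both adipocytes. A row of the deposited gene table was a member if its KEGG annotation named the citrate cycle or oxidative phosphorylation. Rows that KEGG also placed in the lysosome or the peroxisome were left out, as were *Cox8b*, *Dlat*, *Pdhb* and *Acly*. Of 73 rows with either annotation, 9 were left out by this rule and 64 members remained among the 4864 genes of the deposited table. The GENCODE M21 annotation lists 55450 genes, so the table holds only part of them and need not hold every subunit of a complex. The members were 15 citrate cycle genes, 18 subunits of complex I, 3 of complex II, 4 of complex III, 5 of complex IV, 9 of complex V, 9 subunits of the vacuolar proton pump and 4 other genes. The complex II genes belong to both pathways and were counted once in totals. An expression filter (a mean of at least 0.5 FPKM, fragments scaled to gene length and library size) was passed by 60 members.

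The samples were 6 RNA-seq libraries, 3 control and 3 NJT-2. The cells were adipose-derived stem cells (ADSCs) taken from the white adipose tissue of male wild-type C57BL/6J mice. Both groups received the same adipogenic medium with dexamethasone, insulin, 3-isobutyl-1-methylxanthine, indomethacin and triiodothyronine, and were harvested on day 8. The NJT-2 group also received NJT-2, used at 200 nM in the cell experiments of the study. NJT-2 is saikosaponin A, a plant triterpenoid saponin described by the study as a ligand of PPARγ, the nuclear receptor that drives adipocyte differentiation. The labels do not say whether the libraries came from separate cultures or animals, so p-values measure only the spread between these libraries, which may be technical.

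The citrate cycle oxidizes acetyl groups in the mitochondrial matrix and passes the electrons to carriers. Complexes I to IV of the inner membrane hand these electrons on to oxygen while they pump protons, and complex V, the ATP synthase, lets the protons return to make ATP. In thermogenic (brown or beige) adipocytes the proton gradient can instead be spent as heat, and such cells are known for abundant mitochondria. All members analysed here are products of nuclear genes.

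The libraries held 16093037 to 28929673 counts on the analysed genes, which made up 27.7% to 32.5% of each library. In each group 1 library stood apart. Control replicate 1 lay at a distance of 53.8 and 71.3 from the other two controls (Euclidean, on log2(FPKM + 1)), which lay 27.7 from each other. NJT-2 replicate 2 lay at 58 and 55.3 from the other two NJT-2 libraries, which lay 11.8 from each other. Control replicate 1 also carried relatively more signal from short transcripts. Its median log2 level over genes of at most 1962 bases, relative to the mean of all 6 libraries, was 0.85, and it lay between -0.51 and 0.24 in the other 5 libraries. Results are therefore given with and without these libraries, and with an offset for how the level in a library depends on transcript length.

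Genes were called where the groups differed by more than 2-fold and the adjusted p was under 0.05 (quasi-likelihood test of edgeR, Benjamini-Hochberg over all 3705 genes tested). Adipocyte differentiation of the cells was checked with 8 markers. Their summed FPKM was 105.0, 81.89 and 83.72 in the controls and 1625, 480.4 and 1322 with NJT-2, and 5 of 8 were called higher by edgeR and 8 by DESeq2. *Adipoq*, the adipokine adiponectin, stood at 0.38, 0.50 and 0.39 FPKM in the controls and 64.63, 22.04 and 58.45 with NJT-2. *Cd36*, a fatty acid transporter, stood at 0.13, 0.82 and 2.95 FPKM in the controls and 453.68, 206.4 and 400.01 with NJT-2. The sums of all 3 control libraries lay below those of all NJT-2 libraries, and *Lpl*, lipoprotein lipase, made up most of the control sums with 78.79, 55.14 and 55.62 FPKM. The controls thus held little *Adipoq* and *Cd36*. How far the control cells had become adipocytes, and the part of this in the differences below, was not tested. The 4 preadipocyte and fibroblast markers summed to 197.5, 600.9 and 793.5 in the controls and 445.9, 397.3 and 424.4 with NJT-2, with *Pi16* called lower by edgeR and 2 of 4 by DESeq2. The 4 macrophage markers summed to 9.67, 12.74 and 10.28 against 58.74, 31.37 and 44.85, with *Adgre1* called higher by edgeR and 2 of 4 by DESeq2. The 3 endothelial markers summed to 0.45 to 2.46, and the 2 that were tested were called by neither tool. The 2 skeletal muscle markers, at 0 to 0.70, were under the expression filter and were not tested. The 3 proliferation markers summed to 15.86, 39.51 and 38.88 in the controls and 16.12, 20.26 and 21.72 with NJT-2. All 3 had negative log2 fold changes (-1.25 to -0.48), with 0 called by edgeR, 1 at an unadjusted p under 0.05, and *Cdk1* called lower by DESeq2 (adjusted p = 0.00830). In bulk samples fewer cells of a type and less RNA per cell cannot be told apart, and the part of these markers in the results below was not tested.

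Of the citrate cycle genes 14 of 15 were higher with NJT-2, against 50.8% of all genes tested, but no member passed the edgeR test. Of the subunits of complexes I and V 5 of 18 and 4 of 9 were higher, and of complex IV 0 of 5. Without control replicate 1 these 3 complexes had 13 of 18, 7 of 9 and 3 of 5 higher, against 48.7% of all genes tested. The citrate cycle then still had 14 of 15. The low counts of complexes I, IV and V thus rested on that library. The edgeR test called 26 genes (0.702%) and 0 of 60 tested members. At an unadjusted p under 0.05, 13 members (21.7%) were higher, against 8.04% of all genes tested, and 4 (6.67%) were lower, against 9.72%. DESeq2 called 12 members (background 7.94%), 10 of them higher (4.48%) and 2 lower (3.46%), and limma voom with sample quality weights called 16 (background 19.6%). The members took 2.62%, 1.87% and 1.46% of the counts on analysed genes in the controls and 4.33%, 1.86% and 3.82% with NJT-2. NJT-2 replicate 2 thus lay within the range of the controls on this measure, while replicates 1 and 3 lay above it.

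**Figure D1:**
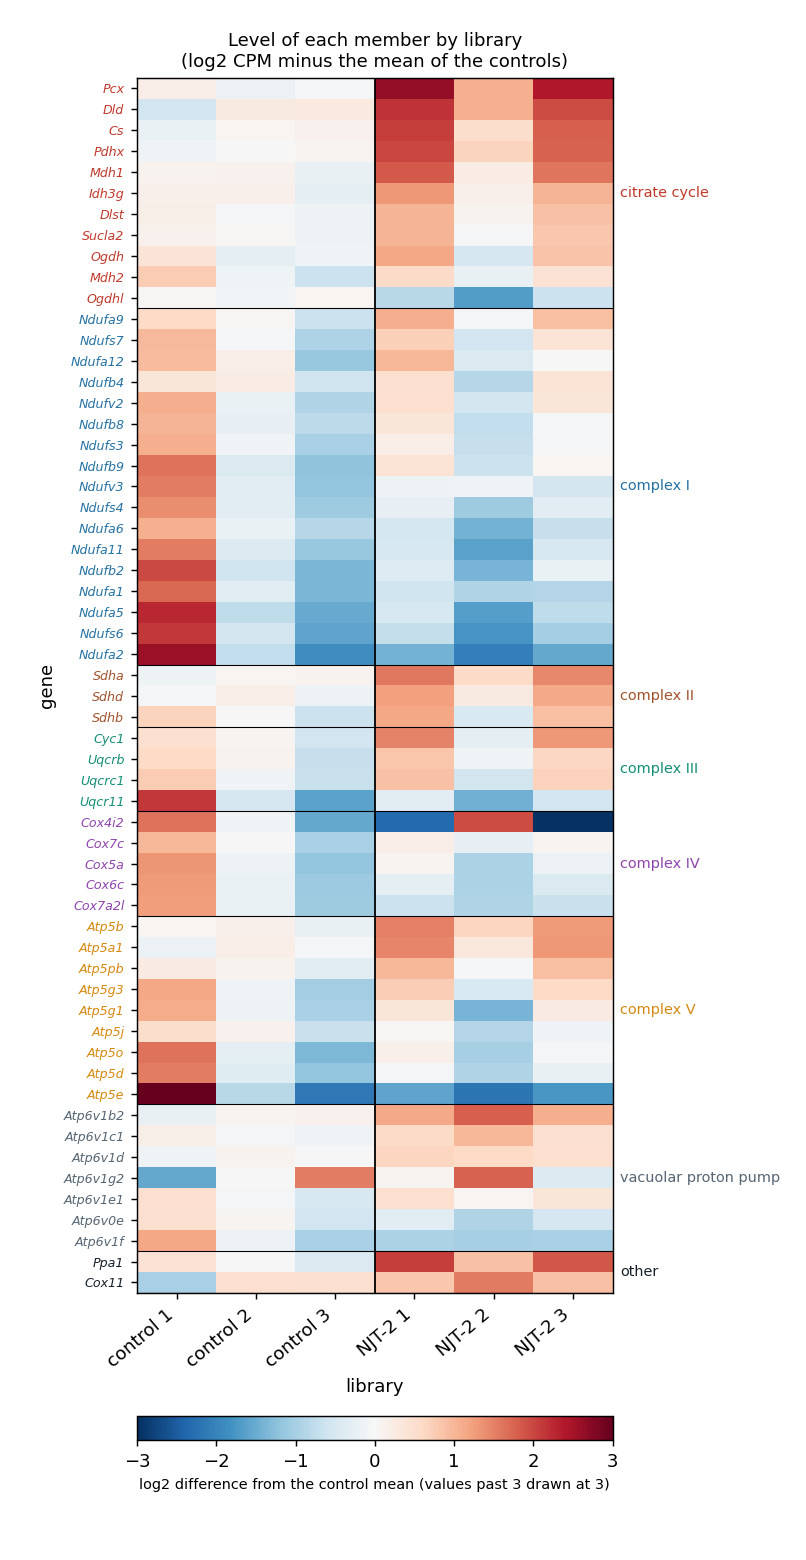
Level of 58 tested members in each library as log2 CPM (counts scaled to library size) minus the mean of the 3 controls (colour scale, values past 3 drawn at 3). Genes are in rows by group, with complex II drawn apart from the other citrate cycle genes, and libraries in columns. The citrate cycle block is red in NJT-2 replicates 1 and 3 for all genes except Ogdhl, while the complex I block is reddest in control replicate 1.

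For the citrate cycle, 14 of 15 genes were higher with NJT-2, against 50.8% of all genes tested, and the median log2 fold change was 0.92. At an unadjusted p under 0.05, 9 of 15 were higher and 1 was lower, against 8.04% and 9.72% of all genes tested. DESeq2 called 7 higher (background 4.48%). The median stayed between 0.75 and 1.34 under every alternative processing tried, and 14 of 15 were higher both without control replicate 1 and with the transcript length offset. By library, the median log2 level relative to the control mean was 0.10, 0.04 and -0.11 in the controls and 1.29, 0.22 and 1.13 with NJT-2. NJT-2 replicates 1 and 3 each exceeded all 3 controls in FPKM for 14 of 15 genes, and replicate 2 for 7 of 15, where 32.0%, 33.4% and 32.8% of all genes did so. NJT-2 replicate 2 was the lowest NJT-2 library for all 15 genes, as it was for the adipocyte markers. Without it, 5 members were called, all of the citrate cycle (background 2.02%). With control replicate 1 also left out, 20 members were called (background 13.0%), of which 12 were citrate cycle genes. Both libraries were left out because they stood apart in these same data, which narrows the spread within groups. Over all genes tested the calls rose from 26 to 482 with both left out, so these counts are a description only.

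Pyruvate carboxylase (*Pcx*, gene at chr19:4510472-4621752 on GRCm38), which makes oxaloacetate from pyruvate and so refills the cycle, measured 26.00, 31.09 and 35.13 FPKM in the controls and 219.00, 68.50 and 190.08 with NJT-2. All 3 NJT-2 libraries were above all controls, with replicate 2 nearest to them. Its log2 fold change was 2.17 ± 0.46 (SE, n = 3 per group), with an edgeR adjusted p = 0.10, the smallest of any member, and a DESeq2 adjusted p = 0.000155. Over all alternatives its log2 fold change lay between 1.88 and 2.63.

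The entry step showed the same order of libraries. Citrate synthase (*Cs*), which joins acetyl-CoA to oxaloacetate, measured 17.54, 32.66 and 35.21 FPKM in the controls and 132.44, 41.97 and 111.84 with NJT-2 (log2 fold change 1.60 ± 0.45, edgeR adjusted p = 0.164). *Pdhx*, the component that anchors dihydrolipoamide dehydrogenase in the pyruvate dehydrogenase complex, measured 2.25, 3.87 and 4.15 FPKM against 15.34, 5.56 and 13.36 (1.58 ± 0.41, adjusted p = 0.139). *Dld*, dihydrolipoamide dehydrogenase itself, measured 8.02, 22.41 and 23.29 FPKM against 84.47, 36.11 and 73.78 (1.76 ± 0.42, adjusted p = 0.132). In none of these 3 genes did the groups overlap, and in each NJT-2 replicate 2 was the closest to the controls.

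The later steps had smaller differences. The oxoglutarate dehydrogenase subunits *Ogdh* and *Dlst* had log2 fold changes of 0.63 ± 0.47 and 0.71 ± 0.35. *Ogdh* measured 21.37, 20.93 and 24.07 FPKM in the controls and 57.45, 16.51 and 46.91 with NJT-2, so NJT-2 replicate 2 was the lowest of all 6 libraries. *Dlst* measured 9.27, 12.39 and 11.79 FPKM against 25.89, 12.60 and 24.14, with no overlap. The isocitrate dehydrogenase subunit *Idh3g* measured 17.12, 26.66 and 20.18 FPKM against 59.56, 24.72 and 50.29 (0.88 ± 0.37). *Sucla2*, the ADP-forming subunit of succinyl-CoA ligase, measured 11.55, 17.06 and 15.18 FPKM against 34.00, 14.70 and 29.96 (0.66 ± 0.36). In both, NJT-2 replicate 2 lay within the range of the controls. Of the malate dehydrogenases, the cytosolic *Mdh1* measured 36.36, 57.60 and 46.45 FPKM against 191.88, 56.83 and 165.13 (1.37 ± 0.46). The mitochondrial *Mdh2* measured 89.28, 74.40 and 53.95 FPKM against 123.11, 64.36 and 112.88 (0.18 ± 0.45), and its direction turned without control replicate 3 (-0.10).

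*Ogdhl* (chr14:32322019-32348151) was the exception. It codes for a second form of the oxoglutarate dehydrogenase subunit that *Ogdh* encodes, and was the only one of the 15 genes lower with NJT-2. It measured 3.17, 4.53 and 5.13 FPKM in the controls and 2.72, 1.39 and 3.13 with NJT-2, the only member whose NJT-2 libraries all lay below all controls (background 11.5%). Control replicate 1 and NJT-2 replicate 3 differed there by only the second decimal. The log2 fold change was -1.0 ± 0.38 with an edgeR adjusted p = 0.253, and it lay between -1.26 and -0.65 over the alternatives.

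**Figure D2:**
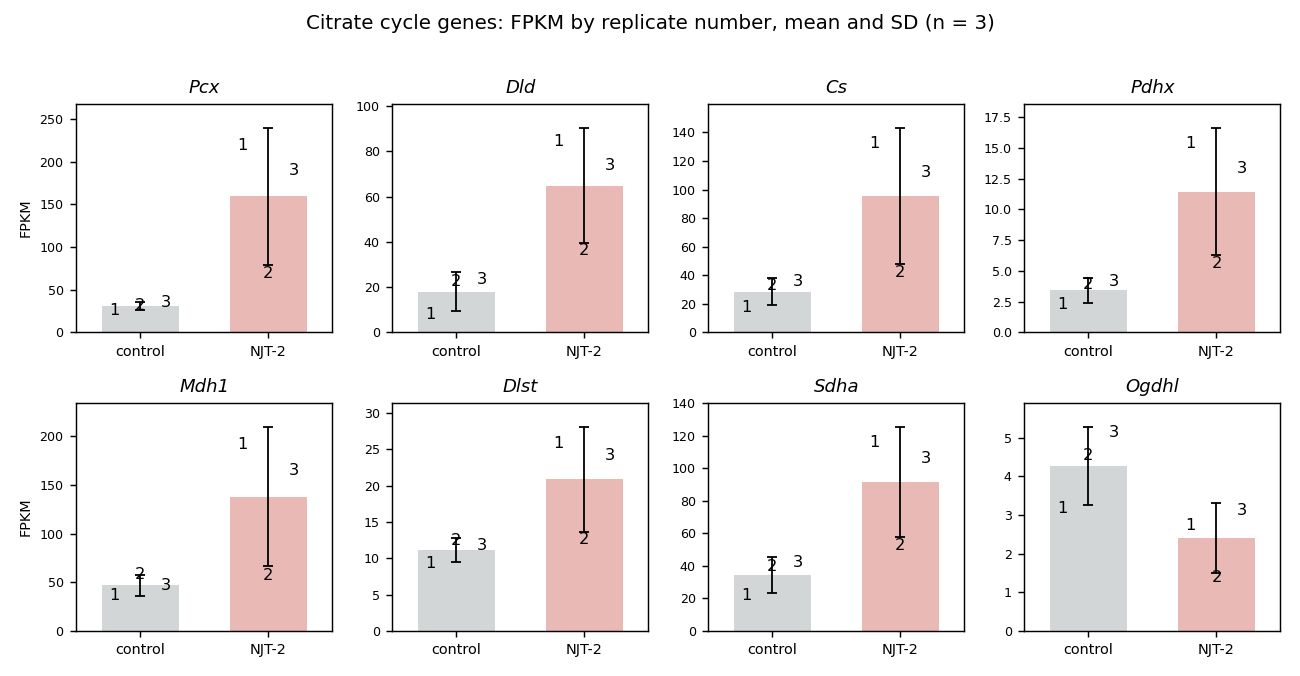
FPKM of 8 citrate cycle genes in each library, one panel per gene, with the replicate number drawn at each library's value, bars at the group mean and lines at the SD (n = 3). In 7 panels NJT-2 replicates 1 and 3 lie far above the controls and replicate 2 close to them, and in the Ogdhl panel all NJT-2 libraries lie below the controls, with means of 2.41 and 4.28 FPKM.

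Complex II, succinate dehydrogenase, carries out a step of the citrate cycle and feeds electrons to ubiquinone. All 3 subunits in the table were higher, with a median log2 fold change of 0.92. The catalytic flavoprotein *Sdha* measured 21.93, 39.88 and 42.09 FPKM in the controls and 115.91, 52.80 and 105.85 with NJT-2, with no overlap (1.26 ± 0.36, edgeR adjusted p = 0.173). The membrane anchor *Sdhd* measured 32.58, 60.18 and 47.96 FPKM against 122.88, 58.13 and 117.36 (0.92 ± 0.35, adjusted p = 0.247). The iron-sulfur subunit *Sdhb* measured 31.82, 30.97 and 20.33 FPKM against 70.49, 21.14 and 60.03 (0.59 ± 0.51, adjusted p = 0.512). In the last 2, NJT-2 replicate 2 lay inside the range of the controls.

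Promoter sequences from RefSeq (GRCm38.p6, 250 bases before to 50 after the annotated start) were matched by Entrez gene identifier for 52 of 64 members. Where a gene had several, the one nearest to its start in the deposited table was taken. They are shown for *Pcx*, the member with the smallest adjusted p, for *Cs*, the entry enzyme of the cycle, and for *Sdhd* and *Atp5g3*, the 2 members that hold the site of the estrogen-related receptors. These orphan nuclear receptors are known regulators of mitochondrial genes. The site searched was TCAAGGTCA on both strands, and capitals mark it where it was found, here as its reverse complement. *Pcx* is at chr19:4510222-4510521 (plus strand), *Cs* at chr10:128337477-128337776 (plus), *Sdhd* at chr9:50603800-50604099 (minus) and *Atp5g3* at chr2:73911277-73911576 (minus). Each is written 5′ to 3′ on the strand of its gene.
Pcx: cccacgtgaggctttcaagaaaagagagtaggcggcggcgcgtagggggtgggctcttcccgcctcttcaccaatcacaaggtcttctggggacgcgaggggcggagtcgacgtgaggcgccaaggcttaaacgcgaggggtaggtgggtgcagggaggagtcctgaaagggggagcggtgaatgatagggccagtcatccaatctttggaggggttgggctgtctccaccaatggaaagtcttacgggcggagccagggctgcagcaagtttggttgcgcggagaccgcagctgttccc
Cs: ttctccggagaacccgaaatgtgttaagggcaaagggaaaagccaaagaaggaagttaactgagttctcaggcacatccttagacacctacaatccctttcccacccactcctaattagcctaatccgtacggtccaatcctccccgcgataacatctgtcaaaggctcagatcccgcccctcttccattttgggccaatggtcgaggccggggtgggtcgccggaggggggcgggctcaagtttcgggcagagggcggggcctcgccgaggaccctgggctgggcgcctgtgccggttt
Sdhd: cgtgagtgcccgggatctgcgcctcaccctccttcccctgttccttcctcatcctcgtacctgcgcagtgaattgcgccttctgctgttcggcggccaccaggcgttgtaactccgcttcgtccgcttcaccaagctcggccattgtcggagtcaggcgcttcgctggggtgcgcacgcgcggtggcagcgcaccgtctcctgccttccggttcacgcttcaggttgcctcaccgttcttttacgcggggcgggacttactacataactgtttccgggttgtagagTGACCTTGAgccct
Atp5g3: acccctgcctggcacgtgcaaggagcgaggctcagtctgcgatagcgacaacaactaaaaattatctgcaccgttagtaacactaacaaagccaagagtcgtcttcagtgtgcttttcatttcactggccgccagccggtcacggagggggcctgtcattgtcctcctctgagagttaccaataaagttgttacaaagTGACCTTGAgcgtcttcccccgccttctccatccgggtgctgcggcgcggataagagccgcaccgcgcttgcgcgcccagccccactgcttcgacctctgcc

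The estrogen-related receptor site stood in 2 of 52 member promoters (3.85%), in 0.314% of the promoters of genes tested and in 0.423% of all 32851 promoters. The palindromic consensus of NRF1 stood in 3 members (5.77%, *Ndufa11*, *Atp6v1e1* and *Uqcrc1*), against 2.2% and 0.971%. The YY1 site AAGATGGCG stood in 5 (9.62%), 4 of them complex I subunits, against 4.19% and 1.4%. The ETS site CCGGAAGT, read by GABPA, stood in 5 (9.62%), against 9.17% and 3.89%. The element AGGTCA repeated in the same direction after 1 base, a form of the site of PPARγ with RXR, stood in 0 of 52, in 0 of 2867 genes tested and in 0.0396% of all promoters. The letters of these motifs were searched on both strands, no match overlapped a match of another motif in the promoters printed, and a match is a description only.

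Complex I, the NADH dehydrogenase, had a negative median log2 fold change of -0.61, with 13 of 18 subunits lower, but this direction rested on control replicate 1. That library had the highest control value for 15 of 18 subunits. By library the median log2 level relative to the control mean was 1.25, -0.28 and -1.10 in the controls and 0.03, -0.79 and -0.13 with NJT-2, so the spread among the controls exceeded the difference between groups. Without control replicate 1 the median was 0.30 and 13 of 18 subunits were higher. With the transcript length offset it was 0.23 and 10 of 18 were higher. With an offset for the median coding transcript it was -0.01. No direction could therefore be given for complex I as a whole.

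The small accessory subunits carried the largest values in control replicate 1. *Ndufa2* (chr18:36742332-36744557), an accessory subunit of the matrix arm, measured 538.12, 84.08 and 39.57 FPKM in the controls and 52.53, 31.22 and 49.54 with NJT-2. Control replicate 1 stood far above every other library, and the remaining values overlapped. Its log2 fold change was -2.84 ± 1.07 (edgeR adjusted p = 0.246, DESeq2 adjusted p = 0.0310) and -0.50 without control replicate 1. *Ndufs6*, *Ndufa5* and *Ndufa1*, chosen after their values were seen, also had their highest value in control replicate 1. *Ndufs6* measured 82.39, 20.30 and 10.14 FPKM against 18.15, 7.96 and 14.95, *Ndufa5* 67.76, 12.83 and 7.86 against 15.80, 6.42 and 13.11, and *Ndufa1* 169.96, 63.54 and 31.78 against 53.57, 39.63 and 45.12. Their log2 fold changes of -1.94, -1.83 and -1.36 became -0.18, 0.16 and -0.06 without that library. Over the 14 accessory subunits, the FPKM of control replicate 1 was 1.21 to 13.6 times that of control replicate 3, with a median of 4.03.

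Core subunits of the complex, conserved from bacteria, had small differences. *Ndufs3*, *Ndufs7* and *Ndufv2*, the last 2 of which hold iron-sulfur clusters, had log2 fold changes of -0.39 ± 0.54, 0.09 ± 0.55 and -0.06 ± 0.55, and 0.29, 0.65 and 0.63 without control replicate 1. *Ndufs7* measured 34.59, 26.94 and 15.02 FPKM in the controls and 46.06, 17.16 and 37.99 with NJT-2. *Ndufa9*, an accessory subunit with a longer transcript, had the highest log2 fold change of the complex at 0.65 ± 0.44, with 26.82, 28.46 and 18.18 FPKM against 59.58, 24.73 and 53.02. In both genes NJT-2 replicates 1 and 3 lay above all controls and replicate 2 among them. NJT-2 replicate 2 was the lowest NJT-2 library for 17 of 18 subunits of the complex.

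Complex III passes electrons from ubiquinol to cytochrome c. *Cyc1*, its cytochrome c1 subunit, measured 31.40, 37.11 and 24.00 FPKM in the controls and 98.84, 26.99 and 87.83 with NJT-2 (0.96 ± 0.51, edgeR adjusted p = 0.331). *Uqcrb*, a small subunit at the quinone site, measured 45.49, 50.44 and 29.77 FPKM against 84.71, 40.52 and 73.51, and the core subunit *Uqcrc1* 40.75, 34.81 and 24.28 against 69.24, 23.48 and 61.80. In all 3 genes NJT-2 replicates 1 and 3 were above every control and replicate 2 was not. *Uqcr11*, a small subunit, instead measured 282.51, 71.58 and 34.37 FPKM against 81.20, 34.63 and 70.25. Its log2 fold change of -1.55 ± 0.89 turned to 0.19 without control replicate 1 and to 0.17 with the transcript length offset.

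Complex IV, cytochrome c oxidase, reduces oxygen to water. All 5 subunits in the table had log2 fold changes below 0 (median -0.65), and control replicate 1 was the highest control for all 5. Without that library the median was 0.24. *Cox7a2l*, which takes part in joining complexes III and IV and had the highest FPKM of the group, measured 313.71, 178.49 and 101.23 FPKM in the controls and 133.02, 101.20 and 131.79 with NJT-2 (-1.05 ± 0.57, edgeR adjusted p = 0.339). *Cox5a*, *Cox6c* and *Cox7c* lay between -0.87 and -0.20 on the log2 fold change scale. The NJT-2 libraries of all of these lay within or below the range of the controls.

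*Cox4i2* followed another order. It codes for an isoform of subunit 4 that is known to be induced by low oxygen. It measured 8.76, 4.07 and 1.51 FPKM in the controls and 0.82, 15.73 and 0.53 with NJT-2, so replicate 2 was the highest of all libraries and the other two NJT-2 libraries the lowest. Its NJT-2 libraries spanned a ratio of 29.7, the log2 fold change was -0.06 ± 1.36, and it lay between -3.22 and 1.59 over the alternatives.

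Complex V is described in 2 sets, formed after its values were seen. *Atp5b* and *Atp5a1*, the catalytic and the non-catalytic large subunits of the head, and *Atp5pb*, the stalk that holds the head in place, were higher, with log2 fold changes of 1.18 ± 0.36, 1.10 ± 0.39 and 0.66 ± 0.39. *Atp5b* measured 104.39, 172.84 and 136.86 FPKM in the controls and 443.72, 225.61 and 388.84 with NJT-2 (edgeR adjusted p = 0.185). *Atp5a1* measured 76.43, 153.69 and 134.46 FPKM against 371.38, 156.34 and 336.49 (adjusted p = 0.229). In both genes the groups did not overlap. *Atp5pb*, named after its values were seen, measured 31.06, 43.96 and 33.01 FPKM against 82.23, 36.11 and 77.97.

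The other 6 subunits of complex V had log2 fold changes between -3.36 and 0.10, with a median of -0.54 that was 0.34 without control replicate 1. *Atp5e* (chr2:174461072-174464105), the small epsilon subunit of the central stalk, measured 235.51, 25.95 and 10.77 FPKM in the controls and 15.66, 9.39 and 14.05 with NJT-2. The controls spanned a ratio of 21.9, and the 3 NJT-2 libraries overlapped the lowest of them. Its log2 fold change was -3.36 ± 1.23 (edgeR adjusted p = 0.236, DESeq2 adjusted p = 0.0158) and -0.52 without control replicate 1. *Atp5o* and *Atp5d*, in the stalks, measured 195.43, 80.77 and 39.65 FPKM against 110.54, 45.94 and 98.95, and 217.88, 90.80 and 52.91 against 114.49, 57.95 and 101.95. *Atp5g3*, one of the genes for the membrane ring, measured 109.84, 70.92 and 38.18 FPKM against 128.50, 51.89 and 118.08. In *Atp5o* and *Atp5d* the controls ran from the highest to the lowest library, so the groups overlapped over their whole range. In *Atp5g3* NJT-2 replicates 1 and 3 lay above all controls, replicate 2 lay among them, and control replicate 3 was the lowest library. *Atp5g1*, another gene for the ring, and *Atp5j* were at -0.33 and -0.34 on the log2 fold change scale, and at 0.36 and -0.10 without control replicate 1. These 5 genes were named after their values were seen.

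**Figure D3:**
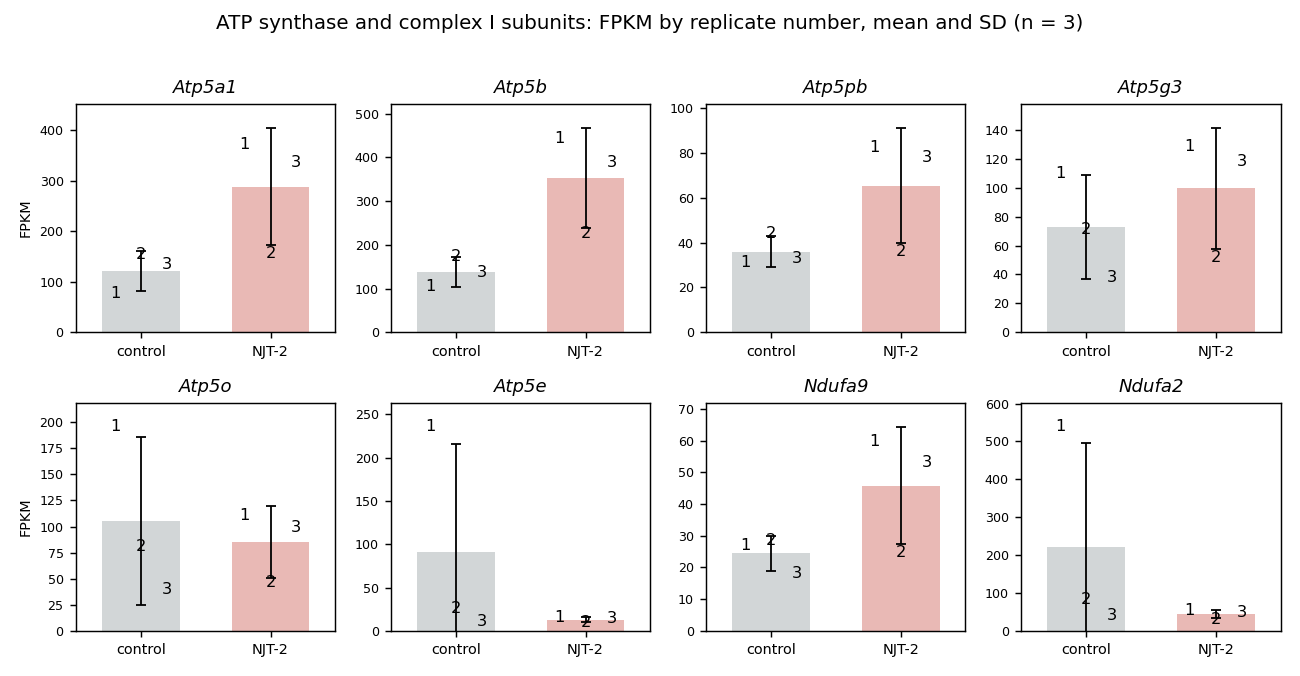
FPKM of 6 subunits of complex V and 2 of complex I in each library, one panel per gene, with replicate numbers at the values, bars at the group mean and lines at the SD (n = 3). In Atp5a1 and Atp5b all controls lie below all NJT-2 libraries, with control replicate 2 of Atp5a1 (153.69 FPKM) just under NJT-2 replicate 2 (156.34), whereas in Atp5e and Ndufa2 control replicate 1 alone, at 235.51 and 538.12 FPKM, sets the control mean.

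The levels of the 2 pathways by library thus had different orders. Over the 36 subunits of complexes I, III, IV and V, the FPKM of control replicate 1 was in the median 2.76 times that of control replicate 3, against 0.74 for the citrate cycle and 0.61 for all genes tested. NJT-2 replicate 1 exceeded NJT-2 replicate 2 by a median ratio of 2.24 for these subunits and 2.41 for the citrate cycle, against 1.17 for all genes tested. The median log2 fold change was -0.37 over these 36 subunits as counted, 0.43 with the transcript length offset and 0.36 without control replicate 1. It was 0.05 with the offset for the median coding transcript and -0.07 with implied library totals. It was -0.22 without NJT-2 replicate 2, -0.27 with a replicate block and 0.57 without both libraries that stood apart. Its direction thus depended on the processing.

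**Figure D4:**
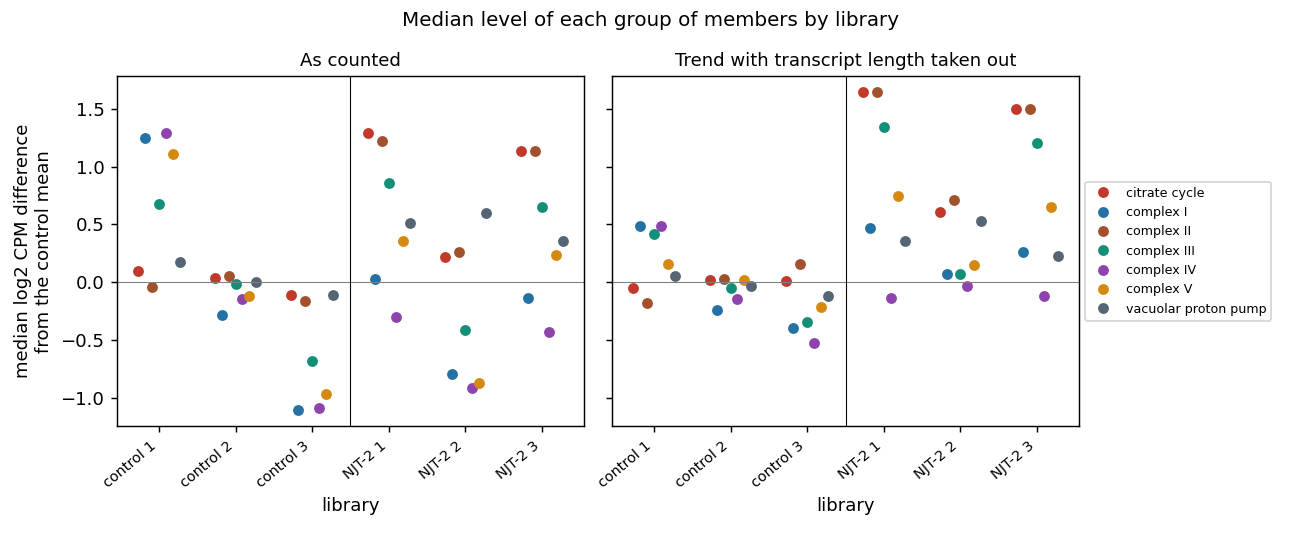
Median level of each group of members in each library as log2 CPM minus the control mean, as counted (left) and after the length trend of every library was subtracted (right), one colour per group. The citrate cycle and complex II stand at 1.13 to 1.29 in NJT-2 replicates 1 and 3 on the left, where complexes I, IV and V stand at 1.11 to 1.29 in control replicate 1, a height that is 0.16 to 0.49 on the right. Points of a library are set side by side by group.

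Transcript length went with the fold change among members. Spearman's rho between the longest annotated transcript and the log2 fold change was 0.477 over 60 members, given as a description since members share their libraries, and 0.366 over all genes tested. It was 0.331 over members without control replicate 1. The 16 members under 1000 bases had a median log2 fold change of -0.62, against -1.08 for all 152 genes tested of that length. The 25 members of 2000 bases or more had a median of 0.66, against 0.14 for 2920 genes. In each class the members thus had a higher median than the genes of like length, with no test of that difference.

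**Figure D5:**
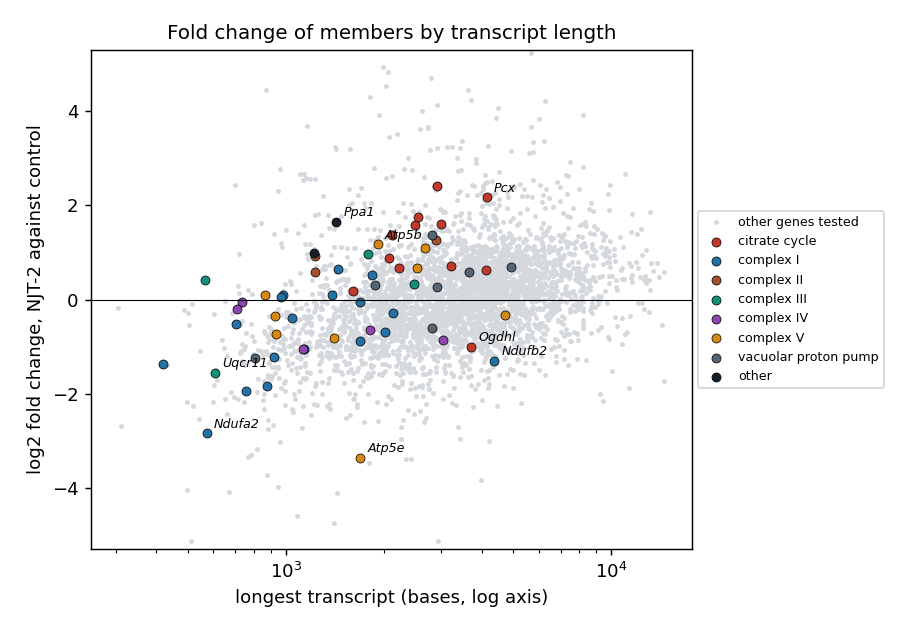
Log2 fold change of NJT-2 against control for genes tested by the length of the longest annotated transcript in bases (log axis). Genes outside the range of the axes are not drawn, among them Cd36 (8.08) and Adipoq (6.62). Members are coloured by group and other genes are grey. Short subunits such as Ndufa2 (572 bases, -2.84) lie at the lower left with other short genes, and Pcx (4148 bases, 2.17), the longest of the citrate cycle genes, lies at the upper right. The citrate cycle genes have a median length of 2544 bases, against 3307 for all genes tested.

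The vacuolar proton pump, which KEGG lists with oxidative phosphorylation, acidifies lysosomes and spends ATP rather than making it. Of its 9 rows 7 were tested, with a median log2 fold change of 0.30 and 5 of 7 higher. *Atp6v1b2*, the widely expressed form of its nucleotide-binding B subunit, measured 8.22, 15.77 and 16.83 FPKM in the controls and 32.86, 47.57 and 32.61 with NJT-2 (1.36 ± 0.33, edgeR adjusted p = 0.134, DESeq2 adjusted p = 0.00420). The groups did not overlap, and here NJT-2 replicate 2 was the highest library. *Atp6v1c1* and *Atp6v1d*, named after their values were seen, also had no overlap, with log2 fold changes of 0.69 ± 0.30 and 0.58 ± 0.27. *Atp6v1f*, a short subunit, measured 93.27, 57.91 and 33.90 FPKM against 34.14, 30.31 and 34.11 (-1.24 ± 0.53), which became -0.49 without control replicate 1.

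Of the remaining rows, *Ppa1*, the cytosolic inorganic pyrophosphatase, measured 16.97, 19.38 and 14.92 FPKM in the controls and 83.26, 33.05 and 73.25 with NJT-2. The groups did not overlap. The log2 fold change was 1.65 ± 0.42 (edgeR adjusted p = 0.137), and *Ppa1* was the one member called with the transcript length offset (2.14, adjusted p = 0.0362, background 0.945%). *Cox11*, a copper chaperone for complex IV, measured 0.99, 4.33 and 4.40 FPKM against 5.41, 8.37 and 5.75 (0.98 ± 0.55). In all, the FPKM of the groups did not overlap for 14 of 60 tested members with NJT-2 higher (background 14.4%), of which 7 were citrate cycle genes, and for 1 with NJT-2 lower.

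The 4 members under the expression filter are proton pump subunits, *Atp4a* of the gastric and *Atp12a* of the non-gastric proton-potassium pump, and *Atp6v1b1* and *Atp6v1c2* of the vacuolar pump. *Atp4a* had 0, 0 and 0 counts in the controls and 12, 10 and 5 with NJT-2, *Atp12a* 0, 12 and 9 against 47, 11 and 19, *Atp6v1b1* 8, 0 and 11 against 14, 17 and 4, and *Atp6v1c2* 0, 12 and 0 against 0, 13 and 0. In the fit without a filter their adjusted p-values were 0.294 to 0.946.

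Other nuclear genes of the mitochondrion were counted in lists that hold no members. Calls in these lists are those of edgeR, with those of DESeq2 where it made any. Of 30 mitochondrial ribosomal proteins 5 were higher and 0 were called (2 lower at an unadjusted p under 0.05, DESeq2 1 lower), with a median log2 fold change of -0.57 that was 0.06 with the transcript length offset. Of 11 assembly factors of the respiratory complexes 4 were higher and 0 called (1 lower at an unadjusted p under 0.05, median -0.22), and of the 2 ubiquinone synthesis genes *Coq6* was at 0.86 and *Coq8b* at -0.63. Of 20 tested mitochondrial carriers 14 were higher and 0 called (2 higher and 1 lower at an unadjusted p under 0.05, median 0.38). DESeq2 called 1 carrier, *Mpc1*. With control replicate 1 and NJT-2 replicate 2 left out, edgeR called 3 of 20 carriers, where 13.0% of all genes tested were called. That fit also called 1 of 11 assembly factors, 1 of the 2 ubiquinone synthesis genes and 1 of 13 import factors and chaperones. It called 0 of the ribosomal proteins and of the regulators. *Mpc1*, a subunit of the mitochondrial pyruvate carrier, measured 0.70, 6.35 and 6.91 FPKM against 45.01, 17.78 and 33.43 (2.76 ± 0.70, edgeR adjusted p = 0.134, DESeq2 adjusted p = 0.00147). Of 6 regulators of mitochondrial biogenesis 5 were higher and 0 called (0 at an unadjusted p under 0.05, median 0.10), with log2 fold changes from -0.64 for *Twnk* to 0.84 for *Gabpa*.

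Among 13 import factors and chaperones 7 were higher, with a median of 0.14, and 1 was called. *Hspa9*, the matrix chaperone that pulls proteins in through the inner membrane, measured 44.78, 72.26 and 74.95 FPKM in the controls and 276.98, 239.59 and 253.08 with NJT-2. It rose by a log2 fold change of 1.86 ± 0.30 (edgeR adjusted p = 0.0471), and its adjusted p lay between 1.29e-10 and 0.357 over the alternatives. Unlike the citrate cycle genes, its level in NJT-2 replicate 2 was close to that in the other two NJT-2 libraries.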

How the data were processed

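Polyadenylated RNA of the 6 libraries was sequenced in pairs after strand marking with dUTP, and both groups, control and NJT-2, had 3 libraries each by the labels. The submitters' processing notes name cutadapt 1.9, HISAT2 2.2.1, StringTie 2.1.6, DESeq2 and edgeR with the GRCm38 build. The counting tool, its strand setting and the annotation release are not given in the sources used here, so overlapping genes and small subunits with near-identical pseudogene copies are uncertain. The authors deposited whole-number read counts per gene, not normalized, and FPKM values per gene, which are scaled to gene length and library size. Both were used for 4864 complete rows, and 1 incomplete line was left out.

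The quasi-likelihood test of edgeR 4.0.16 (R 4.3.3, TMM factors, no covariate) was applied to the counts, for genes whose mean FPKM reached 0.5. A call needed more than a 2-fold difference and an adjusted p under 0.05. Log2 levels were CPM, counts scaled to library size, with a prior count of 2. All p-values are two-sided. The edgeR test was also run on simulated counts of 3705 genes, 200 of them changed, at an adjusted p under 0.05. At the coefficient of variation of these data, 0.504, it recovered 0 of the 200 at a log2 fold change of 1. At a log2 fold change of 3 it recovered 192, with 10 false calls. At a coefficient of 0.2 it recovered 170 and 200, with 6 and 7 false calls. A gene without a call may therefore still differ by 2-fold. Medians over groups of members are descriptions. Alternatives used DESeq2 1.42.0, limma 3.58.1 on log2(FPKM + 1) or log2(FPKM + 0.1), voom with sample quality weights, other filters and scalings, offsets for transcript length (GENCODE M21), a replicate block, and each library left out. Leaving out 2 libraries together, and the offset for the median coding transcript, were added after the data were seen. Named are all tested citrate cycle genes and, in each other group, members with an unadjusted p under 0.05, the highest mean FPKM, or the largest and smallest log2 fold change, complex IV isoforms and members under the filter. Other members named were chosen after their values were seen. Some genes that the rule names are not reported here, though counts and medians include them. The members, the lists (mitochondrial ribosomal proteins, assembly factors, ubiquinone synthesis and cytochrome c, carriers, import and chaperones, regulators, and the cell type markers) and the rule were chosen with earlier results of these data known. At 16093037 to 28929673 counts per library, the spread between libraries rather than counting limited precision, since edgeR's common coefficient of variation was 0.504.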

Additional observations from a re-analysis of the deposited data

How the results depend on the processing

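The number of members called was 0 in the test as reported, 12 with DESeq2, 16 with voom and sample quality weights, 1 with the transcript length offset and 20 with control replicate 1 and NJT-2 replicate 2 both left out, and it ran from 0 to 5 when single libraries were left out. Over all genes the count was 26, 289 with DESeq2, 727 with voom, 482 with both libraries left out, and 0 (without control replicate 2) to 75 (without NJT-2 replicate 2) with single libraries left out. Members with an unadjusted p under 0.05 numbered 17, 26 with the transcript length offset, 40 with voom, 35 without both libraries, and 9 to 23 with single libraries left out. As reported, 13 were higher and 4 lower of 60, against 298 and 360 of 3705 genes tested. With the transcript length offset these counts were 24 and 2, against 342 and 335. Without both libraries they were 33 and 2, against 573 and 632. Without NJT-2 replicate 2 they were 19 and 2, against 336 and 365. The matching counts over all genes are not given for voom.

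Group medians were moved most by leaving out both libraries, to 0.79 for all members, 1.34 for the citrate cycle, 0.55 for complex I, 1.34 for complex II, 1.06 for complex III and 0.80 for complex V. With single libraries left out, the complex I median ran from -1.04 to 0.30 and the complex IV median from -1.08 to 0.24. Complex II had a median of 1.33 with the transcript length offset and a level of 1.28 over the control mean with the length trend taken out. The vacuolar proton pump, at 0.30, had 0.50 with implied library totals, 0.46 with voom, 0.47 on log2(FPKM + 1), 0.58 on log2(FPKM + 0.1), 0.52 without both libraries, 0.49 with the coding transcript offset, 0.22 to 0.61 with single libraries left out, and a level of 0.63 on log2(FPKM + 1).

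Of the 28 tested members that the naming rule picks, 25 kept their direction under all 21 alternatives. Members named outside it also turned, among them *Ndufa5*, *Ndufs3*, *Ndufv2*, *Atp5g1* and *Cox5a*, which were above 0 without control replicate 1 (0.16, 0.29, 0.63, 0.36 and 0.24). *Cox4i2*, at -0.06, was at 0.25 with implied library totals, 1.59 with the transcript length offset, 0.72 with the coding transcript offset, and -3.22 to 1.14 when single libraries were left out, above 0 without control replicate 1 (1.14) or either of NJT-2 replicates 1 (0.45) and 3 (0.48). *Mdh2* was at -0.10 without control replicate 3, and at up to 0.62 without control replicate 1. *Uqcr11* was at 0.17 with the transcript length offset, 0.24 with the offset and a replicate block, 0.05 with voom, 0.51 without both libraries, and -2.05 (without control replicate 3) to 0.19 (without control replicate 1) with single libraries left out. The cause was not tested.

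The labels do not say whether the replicate numbers pair the libraries. The deviations of same-numbered libraries from their group means correlated at 0.179, 0.032 and -0.207, and those of unlike-numbered libraries at -0.209 to 0.223. With 3 libraries per group the deviations sum to 0 within a group, so these values cannot decide it. With the numbers as a replicate block, 57 genes and 0 members were called. In that fit 11 members had an unadjusted p under 0.05. Of these 10 were higher and 1 lower, against 333 and 244 of 3705 genes tested. The vacuolar proton pump had a median of 0.58 there. With the transcript length offset as well, complex I had a median of 0.29.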
